A study of Mus musculus with 10 samples.

Results

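The genes described here are the cytokines of the interleukin-1 family (Il1a, Il1b, Il18), the cytokines Tnf and Il6, and the inflammasome genes Nlrp3 and Casp1. They were chosen by gene name. Of the 7 names, 6 had a row among the 545 endogenous genes of an nCounter immune panel for mouse. On this platform each target molecule binds a fluorescent barcode, and the barcodes are counted one by one. Nlrp3 was not analysed here. The samples were hippocampal microglia of 10 male mouse pups of strain Balbc at postnatal day 14, each from a different litter and each read in 1 lane. The 5 control pups are numbered 1, 18, 40, 52 and 69 in the labels. The 5 pups of the group labelled BDS (brief daily separation) are numbered 11, 17, 24, 38 and 59. Their separation from the dam lasted 15 min a day and is described as running over postnatal days 1 to 21, so it had not ended at collection. How control pups were handled is not given in the sources used here. Cells came from a Percoll gradient followed by FACS, and 2 ng of RNA was made into cDNA and amplified by 5 rounds of PCR.

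Interleukin-1 alpha and interleukin-1 beta bind the same receptor and start the same NF-kB response. Interleukin-1 beta and interleukin-18 are made as inactive precursors that caspase-1, the protease encoded by Casp1, cuts once an inflammasome such as that of NLRP3 has assembled. Interleukin-1 alpha is active without that cut. Tumour necrosis factor and interleukin-6 are early products of activated macrophages, and in the brain microglia are a main source of interleukin-1 and tumour necrosis factor.

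Il1a and Il1b lie on mouse chromosome 2 with 0 protein-coding genes listed between them, and Tnf lies on chromosome 17. The 250 bases before the start site of these 3 cytokine genes are shown. Il1a and Il1b were picked because their ratio of counts within a lane was the 1 of 10 such ratios whose groups did not overlap. Among all 39903 pairs of tested genes, 4.13% did not overlap. Tnf is shown beside them as a cytokine gene from outside the interleukin-1 family. The sequences are RefSeq's, from GRCm38.p6, written 5′ to 3′ on the gene's own strand, and all 6 measured genes matched the table. Capitals mark 2 motifs searched on both strands, the TATA box letters TATAAA and the NF-kB letters GGGNNNNNCC.
Il1a, chr2:129309973-129310222, minus strand: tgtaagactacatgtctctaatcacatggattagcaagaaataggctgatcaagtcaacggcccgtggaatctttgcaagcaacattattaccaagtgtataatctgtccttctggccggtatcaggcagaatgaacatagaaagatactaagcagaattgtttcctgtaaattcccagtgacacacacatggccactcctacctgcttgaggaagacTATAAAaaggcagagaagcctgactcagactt
Il1b, chr2:129371140-129371389, minus strand: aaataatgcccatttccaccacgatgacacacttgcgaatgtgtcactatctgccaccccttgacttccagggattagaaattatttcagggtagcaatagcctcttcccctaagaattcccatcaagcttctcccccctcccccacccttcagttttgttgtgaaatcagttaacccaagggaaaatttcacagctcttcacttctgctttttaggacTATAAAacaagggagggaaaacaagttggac
Tnf, chr17:35202008-35202257, minus strand: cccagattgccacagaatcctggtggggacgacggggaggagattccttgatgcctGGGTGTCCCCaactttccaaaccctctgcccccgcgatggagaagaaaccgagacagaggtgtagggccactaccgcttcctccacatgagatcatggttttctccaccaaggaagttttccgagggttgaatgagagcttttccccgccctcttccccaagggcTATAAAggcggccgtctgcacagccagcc

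Of the 6 measured genes, 4 hold TATAAA in this window and 3 hold the NF-kB letters. All 3 stretches printed hold TATAAA at nearly the same place, Il18 holds it further from its start, and Il6 and Casp1 have no match. Its first base lies 32 bases before the start site in Il1a, 31 in Il1b and 29 in Tnf. Over the 32851 mouse promoter windows of this length, 12.4% hold TATAAA on either strand. Tnf also holds the NF-kB letters, first base 194 bases before the start and read on both strands, and Il6 and Casp1 hold them too, while Il1a, Il1b and Il18 have no match in this window. These letters are common, with 45.8% of all windows holding them. A match is a description of the sequence and was not tied to the counts.

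Depth differed between lanes and between groups. Endogenous counts per lane ran from 76237 in control 52 to 968930 in BDS 17, and the mean housekeeping signal was higher in BDS by 1.23 on the log2 scale. Negative-control probes, which have no target, set the floor: their mean plus 2 SD in a lane is called the limit here and lay between 13.9 and 26.3 raw counts. Of the 545 genes, 283 exceeded it in at least 4 of 10 lanes and were tested. All 11 microglia markers on the panel were among them and summed to 33.1% to 40.1% of endogenous counts in control lanes and 34.6% to 39.0% in BDS lanes. Of the markers of other cells, 3 of 8 for monocytes and neutrophils were tested, namely Ccr2, Csf3r and Cd14. All 8 summed to 0.793% to 1.28% of counts in control lanes and 0.669% to 1.08% in BDS lanes. The figures were 3 of 3 for endothelium (0.184% to 0.394%, and 0.212% to 0.259%), 0 of 7 for T cells, 1 of 5 for B cells and 2 of 4 for NK cells. The part of these cells in the values below was not tested.

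The first question was which of these genes were measured at all. Il1a stood far above the limit in all 10 lanes, and Il18 exceeded it in all 10, though narrowly in control 52 (26 raw counts against a limit of 24.4). Tnf exceeded it in 9 lanes, Casp1 in 8 and Il1b in 7. Il6 exceeded it in 1 lane. Thus 5 of the 6 genes were tested. The lanes below the limit were mostly control lanes: Il1b exceeded it in 2 of 5 control and 5 of 5 BDS lanes, Casp1 in 3 of 5 and 5 of 5, and Tnf in 4 of 5 and 5 of 5. The control lanes in question are numbers 1, 52 and 69, which had the lowest housekeeping signal of the 10.

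**Figure D1:**
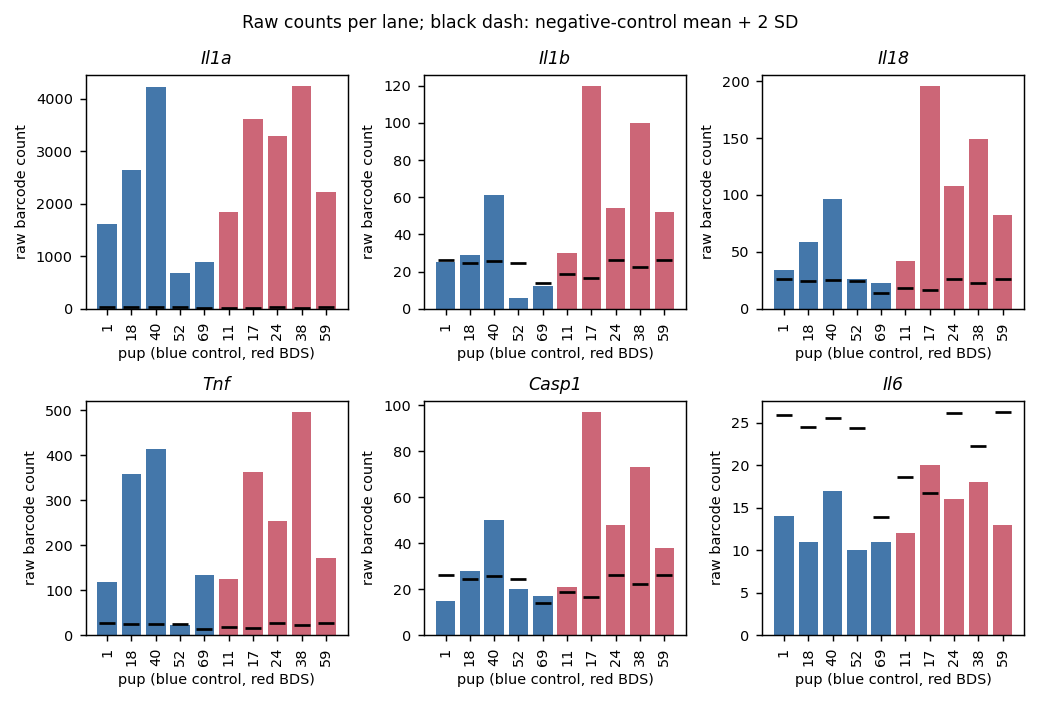
Raw barcode counts (vertical axis, from 0) of the 6 genes in each of 10 lanes (horizontal axis, pup number; blue control, red BDS); the black dash is that lane's negative-control mean plus 2 SD. Il1a is far above the dash in all 10 lanes, Il6 is above it in 1, and Il1b is below it in control 1, 52 and 69.

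To obtain normalized counts, each lane was divided by its geometric mean over 6 housekeeping genes and rescaled to the mean lane. A log2 fold change is BDS over control from edgeR's quasi-likelihood test with its standard error (SE), and a gene was called at an adjusted p under 0.05 over the 283 genes. No gene was called (percent called 0), these 5 included. Before adjustment, a p under 0.05 was reached by 28.3% of all genes tested (19.4% higher, 8.83% lower in BDS) and by 0 of the 5. The normalized counts of both groups did not overlap in 4.59% of all genes tested, and overlapped in all 5. In bulk samples fewer cells of a type and less RNA per cell cannot be told apart.

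Il1a had raw counts of 1615, 2639, 4235, 672 and 887 in control pups 1, 18, 40, 52 and 69. In BDS pups 11, 17, 24, 38 and 59 they were 1836, 3619, 3284, 4253 and 2222. After scaling, the control lanes stood at 2017.5, 2376.5, 2302, 3427 and 2409 normalized counts in the same order. The BDS lanes stood at 2221, 1663, 1899, 2203 and 1576. Every BDS lane lay below the control mean, and the groups overlapped only because control 1 lay under BDS 11 and BDS 38. Means were 2507 ± 537 in control and 1912 ± 298 in BDS (SD, n = 5 each). The log2 fold change was -0.39 ± 0.19 SE (95% interval -0.79 to 0.01; edgeR adjusted p = 0.181). Without control 52, the highest lane, it was -0.25, and with lane depth as a covariate -0.18. In the authors' deposited table, whose scores follow a scaling without the housekeeping gene Sdha, the fold is 0.66 with an unadjusted p of 0.0376. With Sdha left out of the scaling the fit here gave -0.59 (edgeR adjusted p = 0.0999).

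Il1b, the form whose precursor caspase-1 cuts, had the opposite order. Raw counts in control pups 1, 18, 40, 52 and 69 were 25, 29, 61, 6 and 12. In BDS pups 11, 17, 24, 38 and 59 they were 30, 120, 54, 100 and 52. The control count of 6 in pup 52 lies below that lane's mean negative control of 11.1. Normalized, control lanes spanned 26.1 to 33.2, at 31.2, 26.1, 33.2, 30.6 and 32.6. This span rests on raw counts of 6 to 61, which in control 1, 52 and 69 were not above the limit. The BDS lanes stood at 36.3, 55.1, 31.2, 51.8 and 36.9. Every BDS lane exceeded the control mean, and BDS 24 alone lay within the control range. Means were 30.7 ± 2.78 in control and 42.3 ± 10.5 in BDS (SD, n = 5 each). The log2 fold change was 0.47 ± 0.26 SE (95% interval -0.09 to 1.03; edgeR adjusted p = 0.244). With 1 pup left out the log2 fold change lay between 0.35 (without BDS 17) and 0.56 (without BDS 24). It was 0.39 with lane depth as a covariate and 0.29 with Sdha left out of the scaling. Subtracting each lane's mean negative control took the value to 0.97 (edgeR adjusted p = 0.129). That step left 14.9 counts in control 1 and 6.5 in control 69. In control 52 nothing was left, and a floor of 1 count entered the fit. The authors' deposited table gives a fold of 1.2 with an unadjusted p of 0.1523 and lists Il1b as above background in 100% of samples, where the raw counts exceed the lane's own limit in 7 of 10.

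**Figure D2:**
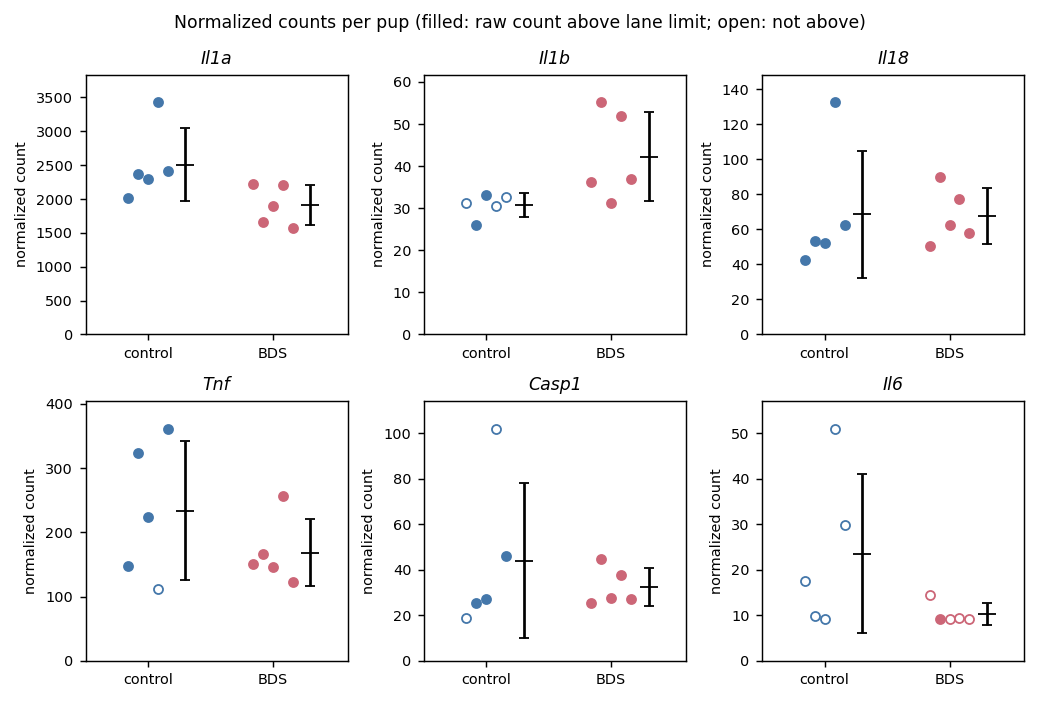
Normalized counts (vertical axis, from 0, a separate scale per gene) in control and BDS lanes, 1 point per pup; filled points have a raw count above the lane's limit, open points do not, and black bars are the group mean ± SD (n = 5). Il1b lies between 26.1 and 33.2 in control lanes (control 1, 52 and 69 not above the limit) and reaches 55.1 in BDS. Il1a, Il18, Casp1 and Il6 each have their highest value in control 52.

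Tnf, the tumour necrosis factor gene, varied widely between control pups. Control lanes 1, 18, 40, 52 and 69 stood at 147, 323, 224.5, 112 and 361 normalized counts, a 3.22-fold span. BDS lanes 11, 17, 24, 38 and 59 stood at 150.0, 167, 146, 257 and 122. The control pups fell on both sides of most BDS pups, so the groups overlapped through most of their range. The SD of log2 values in control lanes was 0.72, above that of 81.3% of tested genes, whose median was 0.46. Means were 234 ± 108 and 168 ± 52.0 (SD, n = 5 each). The log2 fold change was -0.48 ± 0.31 SE (95% interval -1.15 to 0.18; edgeR adjusted p = 0.290). In control 52 its raw count was 22, under the limit of 24.4. Without that lane the value was -0.64 (edgeR adjusted p = 0.131), and without control 69, the highest, -0.29.

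Normalized counts of Il18 and its protease gene Casp1 followed each other over the 10 lanes (Pearson's r 0.943, Spearman's rho 0.903 on log2 values). Both were highest in control 52, and Casp1 was not above the limit in control 1 and 52. With log2 housekeeping signal, r was -0.354 for Il18 (rho 0.127) and -0.59 for Casp1 (rho -0.006). The part of depth in this likeness was not tested. Il18 stood at 42.5, 53.1, 52.2, 133 and 62.5 normalized counts in control pups 1, 18, 40, 52 and 69. In BDS pups 11, 17, 24, 38 and 59 it stood at 50.8, 90.1, 62.4, 77.2 and 58.2. The high control value comes from 26 raw counts in the shallowest lane. The means were 68.6 ± 36.5 and 67.7 ± 15.8 (SD, n = 5 each), and the log2 fold change was 0.08 ± 0.31 SE (95% interval -0.59 to 0.75; edgeR adjusted p = 0.884). Without control 52 it was 0.39, and with TMM scaling, which takes its factors from all tested genes, -0.033.

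Casp1 stood at 18.7, 25.2, 27.2, 102 and 46.2 normalized counts in control pups 1, 18, 40, 52 and 69. In BDS pups 11, 17, 24, 38 and 59 it stood at 25.4, 44.6, 27.8, 37.8 and 27.0 normalized counts. As with Il18, control 52 was far above the rest, here on 20 raw counts that did not exceed the lane's limit. The means were 43.9 ± 34.1 and 32.5 ± 8.33 (SD, n = 5 each), with a log2 fold change of -0.22 ± 0.41 SE (95% interval -1.10 to 0.65; edgeR adjusted p = 0.734). The direction rested on that lane: without control 52 the value was 0.23 (edgeR adjusted p = 0.627). With background subtracted it was 0.25, and with lane depth as a covariate 0.39.

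Il6 was not detectable at this depth in 9 of 10 lanes. Its raw counts were 14, 11, 17, 10 and 11 in control pups 1, 18, 40, 52 and 69. They were 12, 20, 16, 18 and 13 in BDS pups 11, 17, 24, 38 and 59. Mean negative-control counts per lane ran from 5.5 to 13.1, and BDS 17 alone exceeded its limit of 16.7. The counts thus differed little between lanes whose endogenous totals differed widely. Scaling such counts gives 51.0 normalized counts in control 52 and 9.19 in BDS 17, and the authors' deposited table lists a fold of 0.37 with an unadjusted p of 0.123 and 30% of samples above background. Fitted with no filter on low counts, Il6 was at -0.93 ± 0.45 SE (edgeR adjusted p = 0.200).

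**Figure D3:**
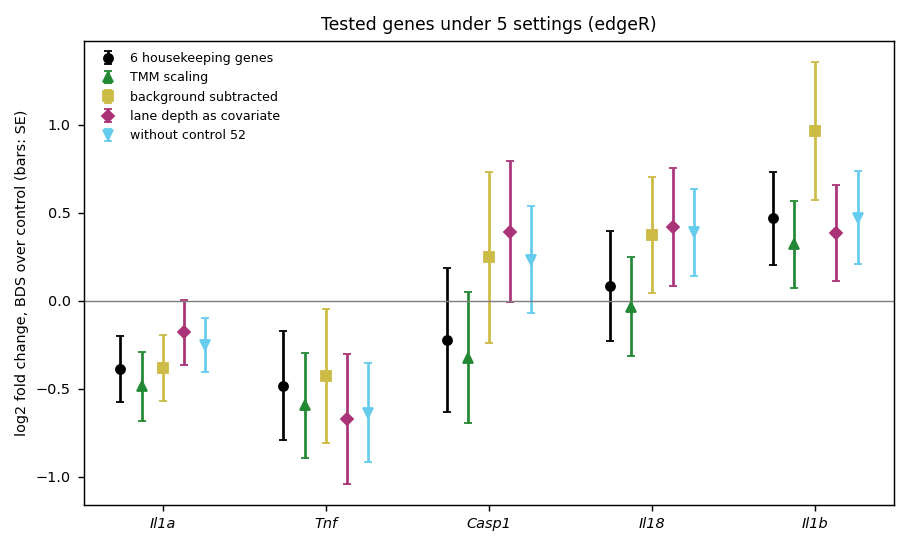
Log2 fold change of BDS over control (vertical axis, bars SE) for the 5 tested genes under 5 edgeR settings; the grey line is no difference. Il1a and Tnf lie below 0 and Il1b above 0 under all 5, while Casp1 moves from -0.32 to 0.39 and Il18 from -0.033 to 0.42. Other settings are not drawn, among them scaling by positive controls alone, which put Il1a at 0.90 and Tnf at 0.74.

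A ratio of raw counts of 2 genes in 1 lane does not depend on how lanes are scaled to each other. It can still vary with lane depth, and the mean housekeeping signal was higher in BDS by 1.23 on the log2 scale. Over the 10 lanes, Pearson's r of log2 normalized counts with log2 housekeeping signal was -0.758 for Il1a and 0.487 for Il1b. The part of depth in the ratios was not tested. The members were chosen with earlier values known, so these ratios are given as a description, without a test. Il1b counts per Il1a count were 1.55%, 1.10%, 1.44%, 0.893% and 1.35% in control pups 1, 18, 40, 52 and 69. They were 1.63%, 3.32%, 1.64%, 2.35% and 2.34% in BDS pups 11, 17, 24, 38 and 59. Each BDS lane exceeded each control lane, though BDS 11 and BDS 24 lay just above control 1. In control 1, 52 and 69 the Il1b count was not above the limit. Il1b exceeded it in 2 of 5 control and 5 of 5 BDS lanes, so it met the filter of 4 lanes only with the BDS lanes counted. The mean log2 ratio was -6.33 ± 0.32 in control and -5.52 ± 0.43 in BDS (SD, n = 5 each), a difference of 0.81 or 1.75-fold.

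This was the 1 pair of 10 whose groups did not overlap. Among all 39903 pairs of tested genes, 4.13% did not overlap. With each pup left out in turn the difference lay between 0.66 (without BDS 17) and 0.91. After background subtraction it was 1.55, or 1.05 without control 52, where Il1b falls to the floor of 1 count. Then the highest control lane, 40, stood at 1.13% and the lowest BDS lane, 11, at 1.17%. The mean log2 ratio of Tnf per Il1a was -3.54 ± 0.88 in control and -3.54 ± 0.32 in BDS. Single lanes set that closeness: the difference, BDS minus control, was -0.35 without control 52, where Tnf is under the limit, and 0.20 without control 69. Casp1 per Il18 was nearly constant over BDS lanes (-1.06 ± 0.07) and more variable over control lanes (-0.80 ± 0.37).

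**Figure D4:**
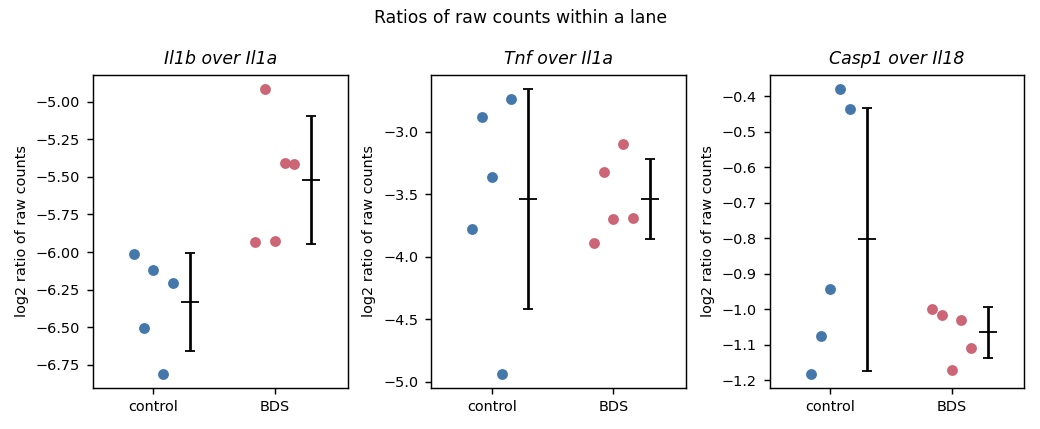
Log2 ratio of raw counts of 2 genes in the same lane (vertical axis) in control and BDS lanes, 1 point per pup, with the group mean ± SD in black (n = 5). For Il1b over Il1a the control lanes lie below all BDS lanes, but Il1b is not above the limit in control 1, 52 and 69. Among all pairs of tested genes, 4.13% do not overlap. For Tnf over Il1a both means are -3.54 (a difference of -0.35 without control 52). For Casp1 over Il18 the BDS lanes are tightly grouped.

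The genes with the most similar pattern over the 10 lanes were found by Pearson's r of log2 normalized counts. All lanes share their scaling and differ in depth, so r describes these lanes only. For Il1a they were Hif1a (r = 0.822, Spearman's rho 0.661), Fcgr3 (r = 0.822) and Ets1 (r = 0.816), and Il1a had an r of -0.758 with log2 housekeeping signal. Ets1 exceeded the limit in only 4 of 10 lanes. Hif1a encodes a subunit of the hypoxia-inducible factor, and Fcgr3 a low-affinity IgG receptor. For Il1b they were Zbtb7b (r = 0.865, rho 0.879), the complement chain gene C1qa (r = 0.852) and the proteasome subunit gene Psmb7 (r = 0.847).

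Il18 was most like Cebpb, a transcription factor of myeloid cells (r = 0.968, rho 0.927), then Tnfrsf14 (r = 0.955) and Casp1 itself (r = 0.943, rho 0.903). Casp1 was most like Lair1 (r = 0.968, rho 0.83), Mapk14 (r = 0.962, rho 0.733) and Tyrobp, a microglial signalling adaptor (r = 0.959, rho 0.879). Tnf had no gene above 0.688, which was Il27, followed by the NF-kB regulator Nfkbiz (r = 0.642) and Ceacam1 (r = 0.605). Il1a and Il1b had an r of -0.444.

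Receptors and decoys for these cytokines were represented by 12 of 13 listed genes, of which 7 were tested and 0 passed the adjusted test. The 3 with the smallest p were Il6st, the shared signal chain of interleukin-6 receptors (0.34 ± 0.23), Il1rl2, an interleukin-36 receptor chain (0.26 ± 0.23), and the tumour necrosis factor receptor gene Tnfrsf1b (0.36 ± 0.35; log2 fold change ± SE, edgeR adjusted p from 0.316 to 0.506). Il1r1, the signalling receptor of both interleukin-1 forms, exceeded the limit in 4 lanes and stood at 20.9 ± 4.31 normalized counts in control and 16.6 ± 0.915 in BDS. The antagonist gene Il1rn, the decoy receptor gene Il1r2 and the interleukin-18 receptor gene Il18r1 exceeded it in 0 lanes and Il18rap in 1, so neither chain of the interleukin-18 receptor was tested. These 4 and Il1r1 were picked with their values known. The median log2 fold change was 0.11, where that of all 283 genes was 0.09.

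Adaptors and kinases of the interleukin-1, tumour necrosis factor and interleukin-6 pathways had 14 tested genes, 11 with a value above 0 and a median of 0.26, where 158 of all 283 genes lay above 0 and their median was 0.09. None passed the adjusted test, and at an unadjusted p under 0.05 there were 4 higher and 1 lower of 14, where 19.4% and 8.83% of all tested genes were; the 1 lower was Jak1 (-1.19 ± 0.53), picked with its value known like Irak1 (0.47 ± 0.21). Chuk, a kinase that frees NF-kB, stood at 528 ± 71.1 normalized counts in BDS and 328 ± 86.1 in control (0.68 ± 0.21, edgeR adjusted p = 0.0907). Irak4, the first kinase after the interleukin-1 receptor, stood at 452 ± 75.8 and 300.2 ± 69.0 (0.58 ± 0.20, edgeR adjusted p = 0.126). Ikbkg, the scaffold of the same kinase complex as Chuk, stood at 200 ± 45.7 and 134 ± 35.5 (0.58 ± 0.25). The adaptor gene Myd88, named after its value was seen, was at -0.54 ± 0.33.

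Inflammasome partners were represented by 4 of 17 listed genes. Only Casp8 and Card9 were tested: Casp8, a protease that can also cut the interleukin-1 beta precursor, was at 0.83 ± 0.23 (edgeR adjusted p = 0.0643) and Card9 at 0.17 ± 0.24. Feedback inhibitors had 4 tested genes, among them Socs3, which limits interleukin-6 signalling, at 329 ± 142 normalized counts in BDS and 175 ± 89.3 in control (0.94 ± 0.37, edgeR adjusted p = 0.132). Socs1 was at 0.22 ± 0.46 and Nfkbia, the inhibitor of NF-kB, at 0.12 ± 0.29. Of 9 transcription factor genes tested, 4 lay above 0 and 5 below, with a median of -0.024. Those with the smallest p were Nfatc1 at 0.87 ± 0.28 (edgeR adjusted p = 0.0968), Irf1 at 0.41 ± 0.19 and Nfkb2 at 0.60 ± 0.31. Rela, a main NF-kB subunit named after its value was seen, was at -0.09 ± 0.16. Relb, also named after its value was seen, was the lowest of this list at -0.98 ± 0.53. Over the 5 lists, 7 genes were higher and 1 lower of 36 at an unadjusted p under 0.05, against the 28.3% of all tested genes, and 0 passed the adjusted test. BDS lanes were the deeper lanes on average beside each of these values.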

How the data were processed

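Per the labels' protocols, 10 lanes of amplified cDNA were read on an nCounter panel. The authors' first deposited table holds raw barcode counts; the counting software is not given in the sources used here. Their second deposited table holds normalized counts rounded to whole numbers, treated as a score, with the percent of samples above background, a fold (ratio of group means) and a p-value per the file headers. Positive controls and housekeeping genes were the authors' basis of scaling, per the series' design text, which states 5 such genes but names 6. In the values, the deposited scores follow 5 without Sdha: lane factor times that mean varied by a ratio of 1.00007 over lanes. All 6 were used here.

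Raw counts were scaled by 6 housekeeping genes and fitted with edgeR 4.0.16 in R 4.3.3 (two-sided, no covariate, Benjamini-Hochberg over 283 genes above the limit in 4 of 10 lanes). The SE is the absolute log2 fold change divided by the root of the F statistic. Log2 normalized counts use a pseudocount of 1. Alternatives used limma 3.58.1, DESeq2 1.42.0, other scalings and filters, and pups left out. The fit was checked on simulated data with known changes. Endogenous totals ran from 76237 to 968930 per lane; amplified counts are not independent molecules. No 2 lanes were alike within sampling noise (chi-square per degree of freedom of at least 13.7 over 45 pairs).

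The genes, the lists and the alternatives were chosen with earlier results of these data known; 1 alternative, background subtraction without control 52, was added after seeing the data. Named were all member genes, the 3 genes of each list with the smallest p, and the 3 genes most like each tested member; others are marked in the text.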

Additional observations from a re-analysis of the deposited data

Results flagged for a closer look

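In a group of 5 pups, 3 of 12 sets of values had 1 lane far from the others, measured as its gap to the nearest lane over the group's range (critical value 0.71); chance marks about 1 in 20 sets. Il1a in control 52 stood at 3427 normalized counts, next to 2409 in control 69, on 672 raw counts. Il18 in control 52 stood at 133 normalized counts, next to 62.5 in control 69, on 26 raw counts in the shallowest lane. Il6 in BDS 11 stood at 14.5 normalized counts, next to 9.32 in BDS 38, on 12 raw counts that did not exceed the lane's limit; BDS 11 was the shallowest BDS lane. The part of lane depth in these values was not tested.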

How the results depend on the processing

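The number of genes called at an adjusted p under 0.05 was 0 with edgeR as described and 0 to 48 with 1 pup left out (48 without control 40, 19 without BDS 11, 0 without each of the others). It was 34 with positive controls alone, 12 without Gapdh and 15 without Polr1b in the scaling, and 26 with DESeq2. At an unadjusted p under 0.05 the count was 80 of 283 genes (55 higher, 25 lower). With no filter it was 139 (53 and 86), out of a larger set of 545 genes. Over the 283 genes it became 125 (125 and 0) with positive controls alone, 45 without BDS 17 and 36 with lane depth as a covariate. With TMM 36 were higher and 39 lower, and without Sdha 25 and 49. Positive controls alone, which moved the median of all genes from 0.09 to 1.35, put Il1a at 0.90, Tnf at 0.74, Casp1 at 1.43 and Il1b at 1.75, the last with an adjusted p of 0.0474. No other setting called a member. Il1a (-0.59 to -0.18) and Tnf (-0.69 to -0.29) stayed below 0, and Il1b above 0 (0.24 to 0.97), in every other setting that tested them. Il18 turned negative with TMM (-0.033), median-of-ratios scaling (-0.048), without Sdha (-0.13) and on the authors' scores (-0.10), and lay between -0.049 and 0.39 with 1 pup left out. Casp1 turned positive with background subtracted (0.25), with lane depth (0.39), without control 52 and 69 (0.45), and without these and BDS 17 (0.30), and lay between -0.43 and 0.23 with 1 pup left out. The causes were not tested. The requirement of 8 lanes left Il1b untested. With a limit of 3 SD Il1b exceeded it in 6 lanes (1 control, 5 BDS) and Casp1 in 5 (1 control, 4 BDS). Thus 5 members still met the filter, Il1b and Casp1 only with the BDS lanes counted. No paired analysis was possible because the groups share no replicate number. In control 52, the shallowest lane, Il1b, Tnf, Casp1 and Il6 were not above the limit; Il6 was also below it in deep lanes (17 raw counts against 25.5 in control 40).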
